A study of Mus musculus with 11 samples.

Results

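Interferon-stimulated genes are the genes that cells switch on when an interferon, a cytokine of antiviral defence, binds its receptor. A list of 31 such genes was followed here, and 29 of them were measured, against 12393 genes of the array with a probe set of their own, called all genes below. A member was measured by the probe sets that the array's annotation gives to its symbol, and the probe set with the highest mean over the 11 samples represented it. A probe set of its own existed for 27 members. Isg15 shared its probe set with Gm9706, and Tgtp1 shared one with Tgtp2, so these are written Isg15/Gm9706 and Tgtp1/Tgtp2, and their partners cannot be told apart. Ifi44 and Xaf1 were not analysed here.

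The samples were livers of male C57BL/6J mice, 15 to 20 weeks old and without any treatment named, harvested between 2 and 4 in the afternoon. The study compared 5 wild-type (WT) livers with 6 livers labelled Gsr-null, Gsr being the gene for glutathione reductase. All of them are called biological replicates by the labels. The labels do not say how Gsr was disrupted. RNA was measured on 1-colour Affymetrix arrays, with 1 log2 value per probe set and sample.

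Type I interferons act through a receptor that activates a complex with STAT2 and IRF9, which binds an element called the ISRE. Interferon gamma acts through a different element, the GAS, and it is the stronger inducer of the guanylate-binding proteins and of the p47 immunity-related GTPases. In liver, hepatocytes, Kupffer cells and endothelial cells all respond to interferons, and a low level of many of these transcripts is present without infection.

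The samples carried the transcripts of liver cells. All 8 measured hepatocyte markers passed a filter of a log2 value above 4 in at least 5 samples, with Alb at 14.2 in WT and 14.3 in Gsr-null livers on average. Of the Kupffer cell and macrophage markers 9 of 10 passed, of the plasmacytoid dendritic cell markers 1 of 5, and of the T and NK cell, B cell, neutrophil and cholangiocyte markers 0 of 10, 0 of 3, 0 of 6 and 0 of 4. Gsr was lower in every Gsr-null sample (4.71 to 5.29) than in any WT sample (6.62 to 6.93) on its representative probe set. Arrays of Gsr-null samples 2 and 3 had a higher floor, with a 5th percentile of 1.79 and 1.76 against 1.53 to 1.62 elsewhere. Control probe sets at the 3' and 5' ends of Gapdh and Actb transcripts report on RNA integrity and labelling, and their 3' minus 5' difference split the livers into 2 sets. WT samples 2 and 4 and Gsr-null samples 1, 2 and 3 formed the lower set (0.544 to 0.703), and WT samples 1, 3 and 5 and Gsr-null samples 4, 5 and 6 the higher set (1.20 to 1.75).

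Few interferon-stimulated genes were called between the genotypes, and their folds went in both directions. A joint shift of the list was not tested. With the filter, 20 of the 29 members were tested, and limma called 1 higher and 1 lower in Gsr-null livers at an adjusted p under 0.05, where 0.216% of 6021 genes were called in each direction. The higher one was Ifi44l and the lower one the probe set of Tgtp1/Tgtp2. Without the filter all 29 were tested, and limma called Ifi44l higher and Gbp2 lower, where 0.105% of all 12393 genes were called higher and 0.0807% lower. At an unadjusted p under 0.05 limma gave 7 of the 20 members with the filter, 2 higher and 5 lower, where 8.79% of genes reached that p, and 8 of the 29 without it, where 8.24% did. Of the 29 folds 11 were positive and 18 negative, so 62.1% were negative against 43.0% of all genes. The median difference, Gsr-null minus WT, was -0.18 on the log2 scale over the members and 0.027 over all genes, and leaving out 1 sample moved the members' median between -0.26 and -0.071. Over the 20 members that passed the filter it was -0.30, and -0.032 over the genes that passed. In whole liver, fewer cells of a type and less RNA per cell cannot be told apart.

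**Figure D1:**
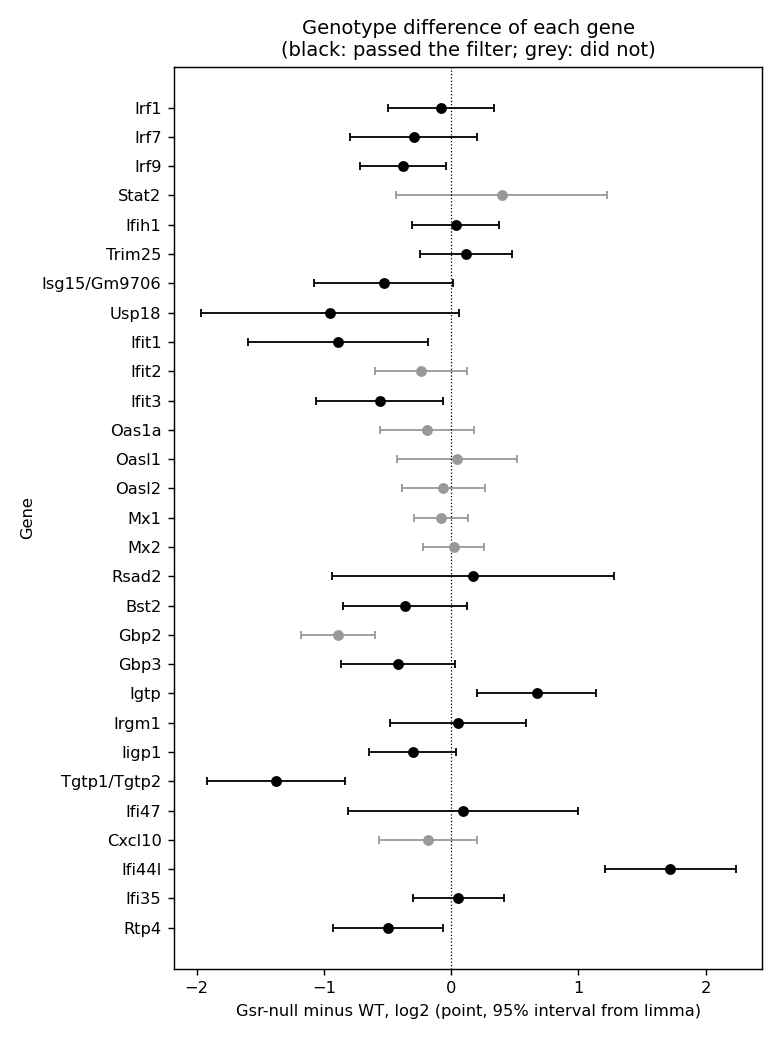
Difference between Gsr-null and WT livers for each of the 29 measured genes on the log2 scale, in the order of their roles, as a point with the 95% interval from limma. Black points passed the filter of a log2 value above 4 in at least 5 samples and grey points did not. Ifi44l lies at 1.72 and Tgtp1/Tgtp2 at -1.37, and most other intervals cross 0.

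Filtering mattered because many members sat close to the floor of the array. A log2 value above 4 was reached in all 11 samples by 16 members and in no sample by 4, namely Ifit2, Oasl2, Mx1 and Mx2. The 9 members that did not pass were these 4 and Stat2, Oas1a, Oasl1, Gbp2 and Cxcl10. Ifi44l passed through its Gsr-null samples alone, so it had to differ to be tested with the filter.

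Ifi44l, an interferon-induced gene on chromosome 3 related to Ifi44, rose in Gsr-null livers. Its log2 values were 2.85, 2.61, 2.36, 3.05 and 1.80 in WT samples 1 to 5, and in Gsr-null samples the lowest was 3.62, the median 4.38 and the highest 4.67. Every Gsr-null sample stood above every WT sample, and all WT values lay below 4. The difference was 1.72 (SE 0.236, limma adjusted p = 0.00734 with the filter and 0.0129 without), a 3.30-fold ratio that starts near the floor. A second probe set separated the genotypes too, at 2.12 to 2.43 in WT and 2.91 to 3.54 in Gsr-null samples (difference 0.98, limma adjusted p = 0.00806 without the filter). On the third the groups overlapped, with a difference of 0.17, and the mean of the 3 probe sets did not pass the filter. Ifi44l stayed called in all 11 fits that left out 1 sample, without the filter (limma adjusted p 0.00841 to 0.0461) and with it (0.00483 to 0.029), where the filter itself let Ifi44l in by its Gsr-null values.

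Guanylate-binding proteins and p47 GTPases, which interferon gamma induces and which attack the vacuoles of intracellular pathogens, held the other called members. Of these 7 genes 3 had a positive and 4 a negative fold. Gbp2, a guanylate-binding protein on chromosome 3, was 4.39, 3.95, 4.08, 4.08 and 4.02 in WT samples 1 to 5. Its lowest Gsr-null value was 2.95, the median 3.15 and the highest 3.58. The groups did not overlap, but only 4 WT values were above 4, so Gbp2 was tested without the filter alone. Gbp2 fell by 0.89 (SE 0.133, limma adjusted p = 0.0251) on this probe set, which is of a kind that can bind related transcripts. On its other probe set the difference was -0.75 (limma adjusted p = 0.0323 without the filter), from 2.95 to 3.44 in WT samples to 2.12 to 2.61 in Gsr-null samples.

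The probe set of Tgtp1/Tgtp2, neighbouring p47 GTPase genes induced in T cells and macrophages, was the member with the largest fall. It read 5.60, 6.51, 5.76, 6.21 and 6.23 in WT samples 1 to 5 and between 4.05 and 5.50 in Gsr-null samples, with a median of 4.65. No Gsr-null value reached the lowest WT value. Tgtp1/Tgtp2 fell by 1.37 (SE 0.250, limma adjusted p = 0.0373 with the filter), a 2.59-fold ratio, and missed the threshold without the filter (limma adjusted p = 0.0635). Separation of the groups, as shown by Ifi44l, Gbp2 and this probe set, occurred in 1.19% of all genes, 0.662% with Gsr-null higher and 0.524% with Gsr-null lower.

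Both falls lost their call in most fits that left out 1 sample. Gbp2 was called in 4 of 11 without the filter (limma adjusted p 0.0175 to 0.0827). Tgtp1/Tgtp2 was called in 1 of 11 with the filter, the fit without Gsr-null sample 2 (limma adjusted p 0.0166 to 0.131). Their folds moved little, between -0.96 and -0.82 for Gbp2 and between -1.54 and -1.25 for Tgtp1/Tgtp2.

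**Figure D2:**
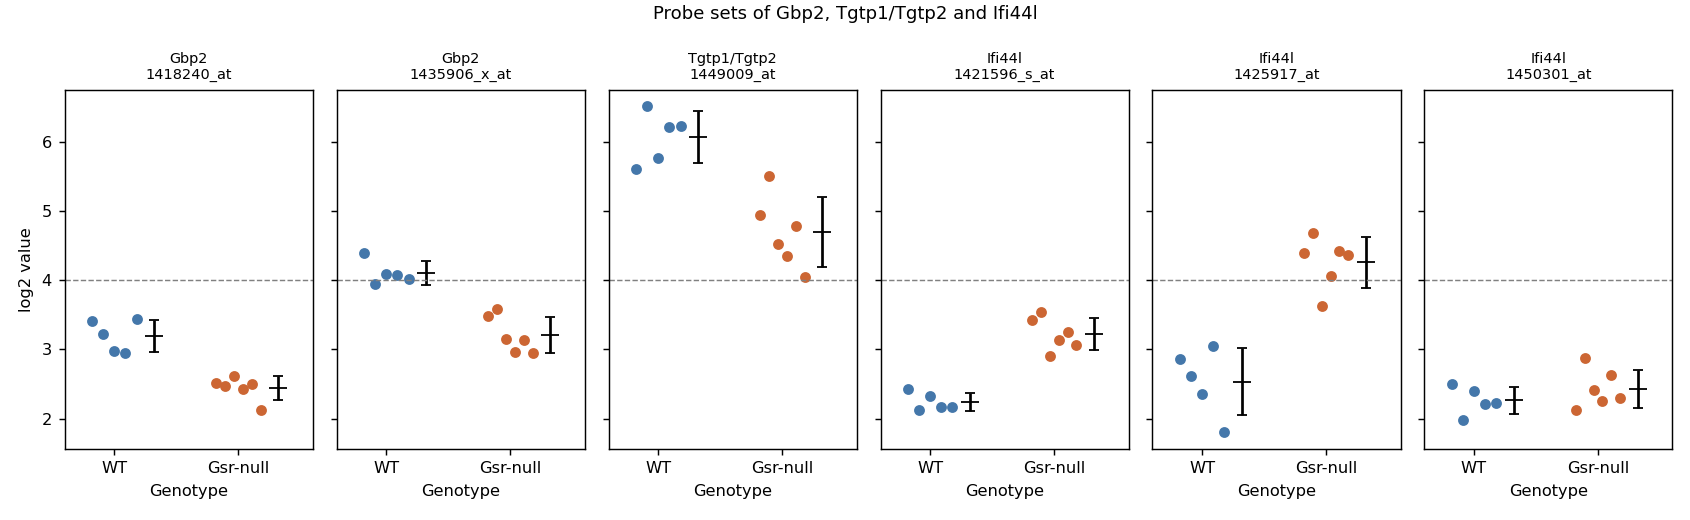
Log2 values of every probe set of Gbp2, Tgtp1/Tgtp2 and Ifi44l in each of the 5 WT (blue) and 6 Gsr-null (orange) livers, with the mean and SD beside the points and the filter level of 4 as a dashed line. Groups are apart on both probe sets of Gbp2, on that of Tgtp1/Tgtp2 and on the first 2 of the 3 of Ifi44l, and on the last of Ifi44l they overlap.

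Igtp, the p47 GTPase also known as Irgm3, went the other way. Its WT values were 7.68, 7.60, 7.50, 7.69 and 7.86. Gsr-null sample 1 read 7.47, below every WT sample, and the other 5 read 8.14 to 8.90, above all of them. The difference of 0.67 (SE 0.214) did not pass over all samples (limma adjusted p = 0.334). Of 11 fits that left out 1 sample it passed in 1, the fit without Gsr-null sample 1, at 0.85. Over these fits the limma adjusted p ran from 0.0393 to 0.545. Gbp3 differed by -0.42 and Iigp1 by -0.30, and neither passed (limma adjusted p = 0.638 and 0.682). Irgm1 and Ifi47, both p47 GTPases of chromosome 11 like Igtp and Tgtp1, differed by 0.051 and 0.091 between the genotypes.

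Promoters are shown for the called members and for the GTPases Igtp, Irgm1 and Ifi47, whose values were uneven among Gsr-null livers. The stretches are the 100 bases before the start of transcription, 5' to 3' on the gene's strand, from the RefSeq promoter table of assembly GRCm38.p6. Capitals mark the ISRE core, GAAANNGAAA on either strand (TTTCNNTTTC), and the GAS letters TTCNNNGAA, which read the same on both strands.
Ifi44l, chr3:151762892-151762991, minus strand: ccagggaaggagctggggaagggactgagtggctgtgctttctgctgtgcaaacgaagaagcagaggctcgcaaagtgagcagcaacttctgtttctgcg
Gbp2, chr3:142620563-142620662, plus strand: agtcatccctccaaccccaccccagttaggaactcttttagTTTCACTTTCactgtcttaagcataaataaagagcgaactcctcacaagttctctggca
Tgtp1, chr11:48992247-48992346, minus strand: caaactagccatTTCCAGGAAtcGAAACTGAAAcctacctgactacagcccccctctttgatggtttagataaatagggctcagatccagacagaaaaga
Igtp, chr11:58199456-58199555, plus strand: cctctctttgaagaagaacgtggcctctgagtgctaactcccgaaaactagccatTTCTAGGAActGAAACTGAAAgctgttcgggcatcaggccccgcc
Irgm1, chr11:48871421-48871520, minus strand: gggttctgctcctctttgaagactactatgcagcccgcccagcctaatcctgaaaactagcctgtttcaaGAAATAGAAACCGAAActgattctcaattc
Ifi47, chr11:49076487-49076586, plus strand: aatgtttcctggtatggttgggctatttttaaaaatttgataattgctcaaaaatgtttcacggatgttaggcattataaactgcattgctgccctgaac

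Tgtp1 and Igtp share an arrangement, a GAS match followed by the ISRE core GAAACTGAAA, which starts 77 bases before the start in Tgtp1 and 34 bases before it in Igtp. Irgm1 holds a pair of ISRE cores that overlap, 30 and 24 bases before its start, and Gbp2 holds 1 on the opposite strand, 59 bases before. In the stretches of Ifi44l and Ifi47 the letters of neither motif occurred. Over the whole windows of 300 bases, which run from 250 before to 50 after a start, 14 of the 26 members in the promoter table held an ISRE core (53.9%), against 3.99% of 27025 genes. A GAS match lay in 7 of the 26 (26.9%), against 9.55% of genes.

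Transcription factors of the response, which carry the interferon signal to its target genes, showed no called member. In WT livers Irf1 was 6.28 ± 0.285 (SD, n = 5) and in Gsr-null livers 6.198 ± 0.362 (SD, n = 6), and Irf7, which amplifies the type I response, 5.51 ± 0.563 and 5.22 ± 0.215. Irf9, the DNA-binding partner of STAT2, was 5.26 to 5.55 in WT and 4.67 to 5.39 in Gsr-null samples (difference -0.38, limma adjusted p = 0.513). Gsr-null samples 3, 4, 5 and 6 lay below every WT value. Stat2 averaged 3.45 in WT and 3.84 in Gsr-null livers and did not pass the filter, and its Gsr-null values ran from 2.82 to 4.80.

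The RNA sensor Ifih1, which detects long double-stranded RNA, and Trim25, a ubiquitin ligase of the RIG-I pathway, both had small positive folds and neither was called. Ifih1 was 7.95 ± 0.320 (SD, n = 5) and 7.98 ± 0.184 (SD, n = 6), and Trim25 was 9.12 ± 0.265 and 9.24 ± 0.284, in WT and Gsr-null livers in that order. Other probe sets of Trim25 gave folds of -0.071 and, near the floor, -0.001.

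Isg15, a ubiquitin-like modifier, and Usp18, the protease that removes it and damps receptor signalling, both had negative folds. Isg15/Gm9706 differed by -0.53 (SE 0.251, limma adjusted p = 0.620). Usp18 was uneven among WT livers, at 4.46, 3.81, 6.48, 3.89 and 6.03 in samples 1 to 5, while the lowest Gsr-null value was 3.55, the median 3.91 and the highest 4.58. WT samples 3 and 5 stood above all other livers, and WT samples 1, 2 and 4 lay within the Gsr-null range. The difference of -0.95 had an SE of 0.465 (limma adjusted p = 0.638).

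Antiviral effectors had 3 positive and 7 negative folds, and none of the 10 was called. The IFIT proteins bind viral RNA. Ifit1 was 5.16, 4.58, 5.94, 4.28 and 5.13 in WT samples 1 to 5 and ran from 3.30 over a median of 4.19 to 4.73 in Gsr-null samples, so the groups overlapped (difference -0.89, SE 0.325, limma adjusted p = 0.443). Ifit3 differed by -0.56 (SE 0.229, limma adjusted p = 0.509), with Gsr-null samples 1, 3 and 6 at 4.24 to 4.43 and below every WT value of 5.05 to 5.75. Gsr-null samples 1, 3 and 6 were also the 3 lowest for Ifit1. Ifit2 did not pass the filter and differed by -0.23.

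Rsad2, or viperin, which makes a chain-terminating nucleotide, had its widest spread in Gsr-null livers. It was 6.92 in Gsr-null sample 3 and 3.35 to 4.90 in the other 5, against 4.14 to 4.93 in WT samples. The difference of 0.17 turned to -0.30 without that sample. Both other probe sets of Rsad2 gave folds of 0.19 and 0.16 over all samples. They too were highest in Gsr-null sample 3, at 4.17 and 6.32. Bst2, or tetherin, which holds budding virus at the cell surface, differed by -0.37 (limma adjusted p = 0.785). The oligoadenylate synthetase family and the Mx GTPases were near the floor: Oas1a averaged 4.18 in WT and 3.99 in Gsr-null livers, Oasl1 3.75 and 3.80, Oasl2 2.71 and 2.65, Mx1 2.24 and 2.16, and Mx2 2.37 and 2.39.

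The chemokine Cxcl10, which attracts T cells, averaged 3.58 in WT and 3.40 in Gsr-null livers and exceeded 4 in 1 of 11 samples. Rtp4 differed by -0.50 (SE 0.198, limma adjusted p = 0.501), and Ifi35 by 0.055. In Rtp4 WT sample 3 was highest at 7.06 and Gsr-null sample 6 lowest at 5.53.

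**Figure D3:**
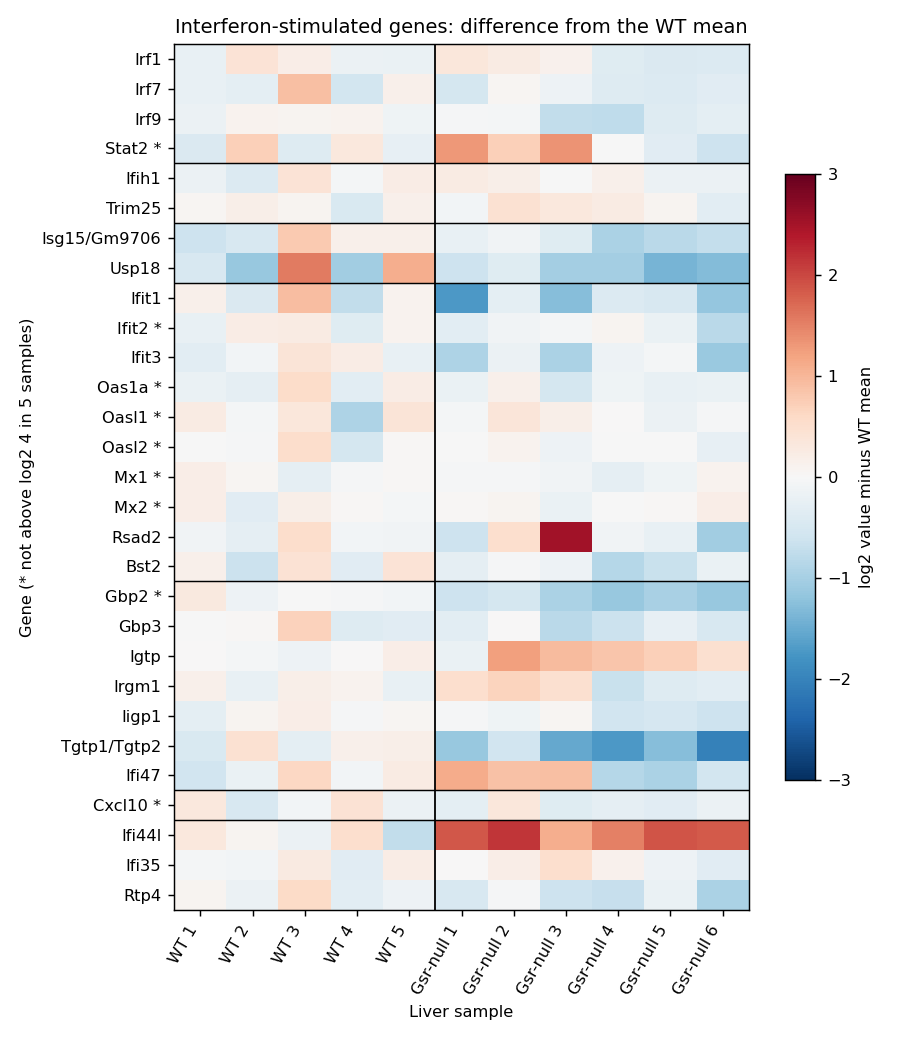
Difference of each sample from the WT mean for the 29 measured genes, on the log2 scale, with WT samples left of the vertical line and Gsr-null samples right of it. Rows are ordered by role, horizontal lines part the roles, and a star marks a gene that did not pass the filter. The row of Ifi44l is positive in all 6 Gsr-null samples and that of Tgtp1/Tgtp2 negative in all 6, and in Ifi47 and Irgm1 Gsr-null samples 1, 2 and 3 differ in sign from samples 4, 5 and 6.

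Within each genotype 1 liver stood above the rest across the list. WT sample 3 was the highest WT sample in 17 of 29 members (58.6%) against 21.0% of all genes, among them Irf7, Usp18, Ifit1, Ifit3, Oas1a, Bst2, Gbp3 and Rtp4. Gsr-null sample 2 was the highest Gsr-null sample in 17 of 29 (58.6%) against 22.0% of all genes, and the lowest in 0. Gsr-null sample 6 was the lowest in 12 of 29 (41.4%) against 24.9% of all genes, but in 8 of the 20 that passed the filter (40.0%) against 33.2%. The median difference from the WT mean over the 29 members was 0.26 in WT sample 3 and 0.074 in Gsr-null sample 2. In Gsr-null samples 4, 5 and 6 it was -0.26, -0.25 and -0.35. WT sample 3 also had the largest 3' minus 5' difference of the controls, 1.75, and Gsr-null sample 2 the highest floor; their part in the result was not tested.

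The spread among Gsr-null livers followed the sets of 3' minus 5' difference for several members. Ifi47 was 8.43, 8.19 and 8.21 in Gsr-null samples 1, 2 and 3, the lower set, and 6.47, 6.37 and 6.77 in samples 4, 5 and 6, the higher set. All WT samples, at 6.74, 7.11, 7.93, 7.24 and 7.56, lay below the first 3. In a fit with the 4 combinations of genotype and set, chosen after the data were seen, the lower set was 1.74 above the higher set within Gsr-null livers (SE 0.262, limma adjusted p = 0.0120).

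Irgm1 followed the same order, at 7.31, 7.47 and 7.27 in Gsr-null samples 1, 2 and 3 and 6.13, 6.42 and 6.49 in samples 4, 5 and 6. WT values of 6.57 to 6.97 fell between these. The lower set was 1.01 above the higher set within Gsr-null livers (SE 0.169, limma adjusted p = 0.0158). Stat2 read 4.76, 4.15 and 4.80 against 3.44, 3.10 and 2.82, a difference of 1.45 (SE 0.208, limma adjusted p = 0.0136 without the filter). Stat2 was also higher in the lower set of WT, at 3.77 and 4.17 against 3.02 to 3.21.

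These 3 were the members called between the sets within Gsr-null livers, 2 of them among the 20 that passed the filter, where 0.83% of genes were called in that direction, and all 3 among the 29 without the filter, where 0.5% were. Each of the 3 stayed called in 10 of 11 fits that left out 1 sample, and each lost the call without Gsr-null sample 5 (limma adjusted p = 0.0612 for Ifi47, 0.0704 for Irgm1 and 0.0707 for Stat2). Within Gsr-null livers 8 members had every lower-set value above every higher-set value, where 9.67% of all genes did: Irf1, Stat2, Isg15/Gm9706, Usp18, Gbp2, Irgm1, Iigp1 and Ifi47. None had the reverse order, which 6.25% of all genes had. Irf1 differed between the sets by 0.65 (limma adjusted p = 0.0777) and Iigp1 by 0.54 (limma adjusted p = 0.0804).

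In WT livers the opposite order was the more frequent one. There 9 members had both lower-set values below all 3 higher-set values, where 17.5% of all genes did, namely Irf7, Usp18, Ifit1, Oas1a, Oasl1, Oasl2, Bst2, Ifi35 and Rtp4. Irf9 and Stat2 had the reverse order, as 10.3% of all genes had. No member was called between the sets in WT by limma, where 1.03% of genes were called with the filter and 0.758% without it. Without the filter 7 of 29 members (24.1%) had an unadjusted limma p under 0.05, against 10.2% of all genes.

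The genotype difference was also read within each set. Within the lower set 17 of 29 members had a positive fold, as did 62.0% of all genes, with a median of 0.13 against 0.074 over all genes. Within the higher set 3 of 29 had a positive and 26 a negative fold, with a median of -0.40 against -0.015 over all genes, of which 46.4% had a positive fold. Ifi44l, Igtp and Stat2 were the 3 positive ones there. The fold in the lower set exceeded that in the higher set in 27 of 29 members, against 62.1% of all genes, by a median of 0.52 against 0.091. No member was called for this difference by limma, where 0.0% of genes were called with the filter and 0.00807% without it. Without the filter 10 of 29 members (34.5%) had an unadjusted limma p under 0.05, against 10.3% of all genes. For Ifi47 the folds were 1.10 and -0.87 in the lower and the higher set (difference 1.98, SE 0.393, limma adjusted p = 0.158), and for Usp18 0.42 and -1.96 (difference 2.38, SE 0.629, limma adjusted p = 0.263).

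Ifi44l and Tgtp1/Tgtp2 kept their direction in both sets, with folds of 1.40 and 1.95 for Ifi44l and -1.37 and -1.47 for Tgtp1/Tgtp2. Gbp2 had a fold of -0.61 in the lower set and -1.14 in the other. Within the higher set alone limma called Ifi44l with the filter (adjusted p = 0.0378), where 0.249% of genes were called. Ifi44l passed that filter through its Gsr-null samples alone. Without the filter limma called Ifi44l (adjusted p = 0.0443) and Gbp2 (adjusted p = 0.0142) there, where 0.186% of genes were called. Within the lower set limma called 0 members, where 0.266% of genes were called with the filter and 0.145% without it. Without the filter 12 of 29 members had an unadjusted p under 0.05 in the higher set, where 8.12% of all genes had, and 8 of 29 in the lower set, where 12.1% had.

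**Figure D4:**
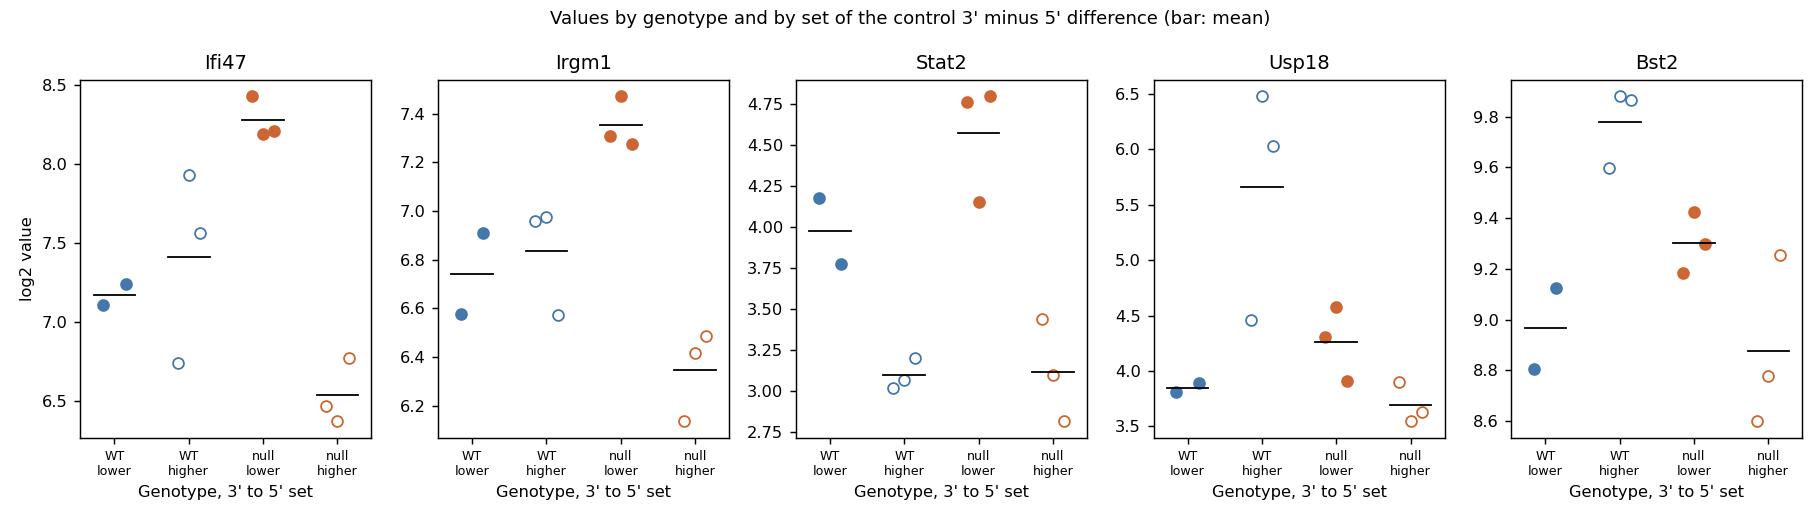
Log2 values of Ifi47, Irgm1, Stat2, Usp18 and Bst2 by genotype (WT blue, Gsr-null orange) and by set of the control 3' minus 5' difference (filled for the lower, open for the higher set), with a bar at each mean. Ifi47, Irgm1 and Stat2 are higher in the lower set of Gsr-null livers, and Usp18 and Bst2 are lower in the lower set of WT livers.

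Kupffer cell and macrophage markers moved with the sets too. Within Gsr-null livers 8 of the 10 measured markers, Clec4f, Vsig4, Cd5l, Marco, Adgre1, C1qa, C1qc and Csf1r, had all lower-set values above all higher-set values, where 9.67% of all genes did. Of the other two, Cd68 differed by 0.48 and C1qb by -0.43, with overlap. The complement gene C1qa differed by 1.04 (limma adjusted p = 0.0292 without the filter) and the scavenger receptor Marco by 1.40 (limma adjusted p = 0.0428 without the filter). The summed level of the list was 11.4 to 11.96 in the lower and 10.7 to 11.1 in the higher set of Gsr-null livers on the log2 scale, and 11.01 to 11.4 and 11.2 to 11.7 in those of WT. Summed sinusoidal endothelial markers were 10.1 to 10.5 in the lower and 9.69 to 9.96 in the higher set of Gsr-null livers. Summed cholangiocyte markers, near the floor, were 4.74 to 5.09 and 4.4 to 4.6. Single markers separated in that direction in other lists too, namely 4 of 7 endothelial, 3 of 8 hepatocyte and 2 of 7 stellate cell markers. So did 1 of 10 T and NK cell and 1 of 6 neutrophil markers, and 0 in the remaining lists. The part of these cell types in the values of Ifi47, Irgm1, Stat2 and the other members was not tested. Between the genotypes the Kupffer cell list had 4 positive and 6 negative folds and no called member.

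Genes upstream of the response were read from a separate list of interferons, receptors, sensors and signalling genes. Of 42 named 32 were measured and 18 passed the filter. Limma called 0 in either direction with the filter, where 0.216% of genes were called in each. Without it limma called 0 too, where 0.105% of all genes were called higher and 0.0807% lower. At an unadjusted limma p under 0.05 were 0 with the filter and 3 without it, where 8.79% and 8.24% of genes were. Folds in this list were positive in 15 and negative in 17, where 43.0% of all genes had a negative fold. Their median was -0.0079, against 0.027 over all genes. The ligands themselves were near the floor, with Ifnb1 at 2.06 in WT and 2.08 in Gsr-null livers and Ifng at 1.46 and 1.45. Ifnar2, a chain of the type I receptor, averaged 9.06 in WT and 8.97 in Gsr-null livers, and Mavs, the adaptor of the RNA sensors, 10.4 and 10.3. The transcription factors Irf2 and Irf3 differed by -0.24 and -0.23.

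A further list held 56 other interferon-induced genes, of which 43 were measured and 27 passed. Limma called 0 of them with the filter and 0 without it, beside the same shares of genes called as above. At an unadjusted limma p under 0.05 were 3 and 6 (11.1% and 13.95%, against 8.79% and 8.24% of genes). Of the folds 19 were positive and 24 negative (median -0.013). Ifitm3 and Ifitm2, which block virus entry, differed by -0.016 and -0.003, Lgals9 by 0.13 and the p47 GTPase Irgm2 by 0.061. The 3 that reached the unadjusted p with the filter were all lower in Gsr-null livers and are named after their values were seen: Cxcl9, a chemokine induced by interferon gamma, at -1.26, the immunoproteasome subunit Psmb10 at -0.59 and Tdrd7 at -0.34 (limma adjusted p = 0.334, 0.319 and 0.468). Directions were mixed among those that reached it without the filter, with Tor3a at 0.30 and Tap1 at -0.63 (limma adjusted p = 0.472 and 0.527). The chemokine Cxcl11 was at 0.34 (limma adjusted p = 0.622 with the filter).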

How the data were processed

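Liver RNA of 5 WT and 6 Gsr-null mice was measured on Affymetrix arrays. The deposited table holds log2 values of 22690 probe sets, a scale read from their range (0.329 to 14.7), and GCRMA is the method named in the submitters' processing notes. It corrects background by probe sequence and normalizes between arrays. The sources used here give no version of it. GCRMA brings dim probe sets to a common floor, which shrinks their differences. The number of arrays limits the precision.

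After 64 control probe sets were left out, limma 3.58.1 (lmFit and eBayes, R 4.3.3) was run on the 9560 probe sets with at least 5 samples above 4, and on all 22626 without that filter. Benjamini-Hochberg adjustment ran over every probe set tested, and a call was an adjusted p under 0.05. The fit was tested on simulated data. Gene names came from the platform annotation, in which 20380 probe sets had 1 symbol, 691 several and 1555 none. Counts over genes use the representative probe set of each. Probe sets ending in _s_at, _x_at or _a_at can bind related transcripts. These include the representative probe set of Gbp2 and the second probe set described for Ifi44l. Promoters came from RefSeq, where 26 of the 31 members matched.

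The named genes are all members, Gsr, and from each other list its called genes or else the 4 with the highest mean, and from each marker list the gene with the highest mean. Outside this rule, and chosen after their values were seen, are Alb, Ifnb1, Ifng, Cxcl9, Psmb10, Tdrd7, Tor3a, Tap1, Cxcl11, Gbp7, the Kupffer cell markers other than Cd5l, Col1a1, Col1a2 and Col3a1. Members and lists were chosen with earlier results of these data known. Each marker list is given by the genotype difference of its gene and by its number of positive folds, and none had a called member. The lists covered hepatocytes (Apoa1 -0.075, 6 positive of 8), Kupffer cells (Cd5l -0.11, 4 of 10) and plasmacytoid dendritic cells (Tcf4 -0.40, 3 of 5). Tcf4 was the only marker of its list that passed the filter. Next were T and NK cells (Cd8a 0.11, 4 of 10), B cells (Ms4a1 0.10, 1 of 3) and neutrophils (S100a9 0.67, 6 of 6). S100a9 was at 0.11 without Gsr-null sample 1, which read 6.50. The rest were sinusoidal endothelium (Clec4g -0.21, 2 of 7), stellate cells (Reln -0.19, 6 of 7) and cholangiocytes (Sox9 -0.15, 1 of 4). Among stellate cell markers Col1a1 was at 0.74, Col1a2 at 0.89 and Col3a1 at 0.87. Alternatives were another scaling, variance model, filter and threshold, array weights, blocks, the mean of probe sets and the omission of samples. The fits within sets of 3' minus 5' difference were added after the data were seen.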

Additional observations from a re-analysis of the deposited data

Results flagged for a closer look

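A single liver lay far from the others of its genotype in 3 of the 58 combinations of gene and genotype, where chance would give 2.9. WT sample 4 read 8.65 for Trim25, and the other WT livers 9.19 to 9.29. Rsad2 was 4.93 in WT sample 3, against 4.14 to 4.32. Gsr-null sample 2 read 3.92 for Cxcl10 and the remaining Gsr-null livers 3.22 to 3.41, all below the filter level of 4.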

How the results depend on the processing

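Of 667 folds of the 29 genes under alternatives, 48 changed sign, 31 lost a call and 1 gained one, and the other 587 kept both their sign and their call. The cause of each change was not tested, except where fewer samples, fewer probe sets or a stricter threshold enter by construction. Low signal limits the 9 members near the floor.

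With the filter, the 1 higher call became 0 without moderation, with the replicate block, with the mean of all probe sets, with the filter at 6 and within the lower 3' to 5' set. The 1 lower call became 0 with array weights, without moderation, with the replicate block, without Gsr-null samples 2 and 3, with the filter at 6, at an adjusted p under 0.01 and within either set. Without the filter, the 1 higher call became 0 without moderation, with the replicate block, at an adjusted p under 0.01 and within the lower set. The 1 lower call became 2, Gbp2 and Tgtp1/Tgtp2, with a repeated quantile normalization, median centring, trend and robust options, array weights or a block for the sets, and 2 with the mean of all probe sets. It became 0 without moderation, with the replicate block, without Gsr-null samples 2 and 3, at an adjusted p under 0.01 and within the lower set. Without Gsr-null samples 2 and 3 Tgtp1/Tgtp2 was at -1.54 (limma adjusted p = 0.0506) and Gbp2 at -0.97 (0.0501). Leaving out 1 sample gave 1 to 2 higher and 0 to 1 lower calls with the filter and 1 to 2 and 0 to 2 without it. Calls between the sets within Gsr-null livers then ran from 0 to 2 with the filter and 0 to 4 without. The median fold of the members was 0.13 within the lower and -0.40 within the higher set, and -0.26 to -0.071 with 1 sample left out.

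Folds that changed sign were small in the comparison of all samples, except where the sets differ. Within the lower set they were 0.13 for Irf1, 0.21 for Irf7, 0.42 for Usp18, 0.099 for Oas1a, 0.25 for Oasl2 and 0.34 for Bst2. Within the higher set they were -0.22 for Ifih1, -0.099 for Trim25, -0.40 for Oasl1, -0.033 for Mx2, -0.57 for Rsad2, -0.49 for Irgm1, -0.87 for Ifi47 and -0.26 for Ifi35. Without Gsr-null samples 2 and 3 they were -0.019 for Trim25, -0.068 for Oasl1, -0.50 for Rsad2, -0.21 for Irgm1, -0.31 for Ifi47 and -0.092 for Ifi35. With array weights they were -0.056 for Ifih1, -0.029 for Oasl1, -0.12 for Ifi47 and -0.026 for Ifi35. Mx2 was -0.047 with the repeated quantile normalization and -0.018 with the replicate block, and Irgm1 was -0.0007 with the block for the sets. With 1 sample left out the folds ran from -0.17 to 0.020 for Irf1, -0.066 to 0.14 for Ifih1, -0.19 to 0.14 for Oasl1, -0.19 to 0.071 for Oasl2, -0.067 to 0.066 for Mx2, -0.30 to 0.42 for Rsad2, -0.074 to 0.19 for Irgm1, -0.11 to 0.30 for Ifi47 and -0.034 to 0.14 for Ifi35.

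The genotypes share replicate numbers, but the labels name no pairing. Sample titles also carry a second numbering, in which the Gsr-null numbers differ from their replicate numbers. Deviations of samples with the same replicate number correlated at -0.243 to 0.0361 over 5 pairs. For 0 of the 5 WT livers was the same-numbered Gsr-null liver the best match, so the values gave no sign of a pairing. They cannot exclude one, because same-numbered samples 1, 3 and 4 fell in opposite 3' to 5' sets. With the replicate block limma gave Ifi44l an adjusted p of 0.0924 at a fold of 1.70, Tgtp1/Tgtp2 0.101 at -1.25 and Gbp2 0.165 at -0.84.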

Other observations

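Gbp7, a guanylate-binding protein outside the list, was looked at after the values of Gbp2 were seen. On its second probe set it was 3.06 to 3.37 in Gsr-null and 3.67 to 4.12 in WT samples, with no overlap (difference -0.55, SE 0.0974, limma adjusted p = 0.061 without the filter). On its representative probe set the groups overlapped, with a difference of -0.22.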
